A study of Mus musculus with 2 samples.

Results

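The CTCF peaks described here have a summit base that is soft-masked, that is, written in lower case in the copy of the mouse assembly read here (GRCm38.p6), the usual mark of repeats and low-complexity sequence. They were taken from the optimal peak list of the 19 autosomes, where 8502 of 48806 summits were masked, and the other 40304 summits are called unmasked. The whole optimal list held 49970 peaks. How that copy was masked was not given in the sources used here, and its masking may differ from that of mm10 in genome browsers, so the membership, the masked shares and the run lengths below hold for this masking alone. The rule used the measured summit position and no signal value. Masked and unmasked peaks alike had already passed the reproducibility threshold of the optimal list, so both were selected on these data. Of the members, 8290 had a summit within 100 bp in the full lists of both replicates, and members without a value in a list were left out of that list's summaries alone.

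CTCF binding had been measured by chromatin immunoprecipitation and sequencing in limb tissue of B6NCrl mouse embryos at 14.5 days, a stage at which digits, cartilage and muscle form. The series holds 1 group with 2 libraries, replicate 1 and replicate 2. Both were made from a single biosample that pooled pulverised limbs of male and female embryos from several dissections, so the spread between them may be technical. The signal of a peak in the optimal list, called pooled signal here, and in each replicate list is the authors' own value on the scale of that list, how it was normalized was not given in the sources used here, and read depth is unknown. In a mixed tissue, binding in fewer cells and weaker binding per cell cannot be told apart.

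CTCF is a protein with a row of zinc fingers that binds a long, directional DNA motif and, together with cohesin, anchors chromatin loops. Transposable elements have carried copies of this motif to many places in mammalian genomes, and in rodents the B2 family of short interspersed elements is known for it. The files and annotation used here name no repeat, so the sequence groups below carry numbers and no element name.

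The following sequences show what the masked sites had in common, in 5′ to 3′ order on the strand of the motif. Capitals mark the 20 bases of the CTCF motif, lower case marks the bases beside it, and neither shows masking. The first is the consensus of the motif matrix, learned from the strongest 1000 unmasked summits of odd-numbered autosomes. The next 4 are consensus sequences of the 4 largest groups of masked sites with similar flanks, called families 1 to 4 here, taken over all members but those of a single autosome.

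Unmasked motif: TGTGGCCACCAGGGGGCGCT
Family 1 consensus: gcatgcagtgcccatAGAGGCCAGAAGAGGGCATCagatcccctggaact
Family 2 consensus: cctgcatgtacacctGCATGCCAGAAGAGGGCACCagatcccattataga
Family 3 consensus: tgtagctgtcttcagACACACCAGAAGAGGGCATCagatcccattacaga
Family 4 consensus: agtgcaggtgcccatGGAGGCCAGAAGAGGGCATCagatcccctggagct

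Single sites from the GRCm38.p6 assembly are shown with 30 bases on each side of the motif, to set the strongest masked summit and a strong member of each of these families beside the strongest unmasked summit. None of these stretches overlaps an annotated exon. The masked summit at chr6:99804395-99804474 lies upstream of Prok2, chr4:129350801-129350880 lies in an intron near Zbtb8os, chr1:37634806-37634885 in an intron near 2010300C02Rik, chr2:152678425-152678504 in an intron near Mcts2, and chr5:139745946-139746025 between genes near Ints1. The unmasked summit lies at chr5:120102899-120102978.

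Strongest masked, Prok2, plus strand: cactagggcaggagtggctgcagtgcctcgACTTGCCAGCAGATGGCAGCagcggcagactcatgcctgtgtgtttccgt
Family 1, Zbtb8os, plus strand: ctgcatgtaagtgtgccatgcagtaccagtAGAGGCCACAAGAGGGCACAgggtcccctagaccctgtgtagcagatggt
Family 2, 2010300C02Rik, minus strand: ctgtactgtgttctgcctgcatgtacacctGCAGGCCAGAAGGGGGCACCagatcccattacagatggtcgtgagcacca
Family 3, Mcts2, plus strand: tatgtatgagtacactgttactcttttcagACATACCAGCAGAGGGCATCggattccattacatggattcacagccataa
Family 4, Ints1, minus strand: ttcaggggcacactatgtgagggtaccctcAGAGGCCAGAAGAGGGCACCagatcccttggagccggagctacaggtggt
Strongest unmasked, minus strand: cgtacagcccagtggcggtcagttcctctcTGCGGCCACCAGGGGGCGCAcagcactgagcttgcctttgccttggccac

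CTCF summits lay in masked sequence less often than the share of the genome that is masked. Masked bases made up 33.5% of the autosomes, and 17.4% of autosomal optimal summits were masked (exact binomial 95% interval 17.1 to 17.8%, which covers counting error only). The share was 16.9% among the strongest peaks of replicate 1 and 17.3% among those of replicate 2, each list taken to the length of the optimal list, 49970 peaks. By chromosome it ran between 14.7% on chromosome 18 and 23.1% on chromosome 5, where 811 of 3511 summits were masked. The next highest was chromosome 17 with 19%, so chromosome 5 lay above a gap that no other neighbours in this order had.

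Most of these summits sat in short masked stretches. The masked run that held the summit had a median length of 52 bp, with quartiles of 28 and 110 bp and a maximum of 6651 bp. The summit was within 10 bp of the end of its run at 3500 members (41.2%), and the summit and all 50 bases on each side of it were masked at 912 (10.7%). At least 50% of the same window was masked at 5715 members (67.2%) and at 2.12% of unmasked summits. Of unmasked summits, 71.5% had no masked base in it. The label therefore holds for the summit base, and for the larger part of the members it does not hold for the whole site.

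The sequence at a masked summit was seldom repeated exactly. The 36 bases centred on the summit had a single copy in the genome at 95.8% of masked and 99.7% of unmasked summits, and the 50 bases at 99.5% of masked and 99.9% of unmasked summits. The read length and the treatment of reads with several matches were not given in the sources used here, so the part of mapping in any value below was not tested.

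Masked CTCF sites were weaker than unmasked ones in the pooled signal and in both replicates. The median pooled signal was 36.9 at masked summits (quartiles 24.8 and 65.0, highest 476.0) and 68.3 at unmasked summits (quartiles 31.99 and 161.6, highest 597.2). In replicate 1 the medians were 18.8 for masked and 35.96 for unmasked summits, and in replicate 2 they were 18.5 for masked and 34.2 for unmasked summits. The ranges overlapped throughout, and the strongest 1000 optimal peaks included 37 masked and 961 unmasked autosomal summits.

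On the log2 scale the pooled signal was lower by a fitted difference of -0.74 at masked summits (SE 0.0133, means of 5.41 at masked and 6.15 at unmasked summits, n = 19 chromosomes, adjusted p = 1.40e-20), and it was lower on 19 of 19 autosomes. Among the strongest 50% of peaks the difference was smaller, -0.43 (SE 0.0167, n = 19 chromosomes, adjusted p = 1.03e-14). This and the fitted differences below come from ordinary least squares over all autosomal peaks, with standard errors clustered by chromosome, two-sided, and p-values adjusted by the Benjamini-Hochberg method over 10 outcomes. All but this first fit compare peaks within the same decile of pooled signal, called like signal here. Peaks are not replicates, so these p-values rest on the spread between chromosomes of the same pair of libraries.

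**Figure D1:**
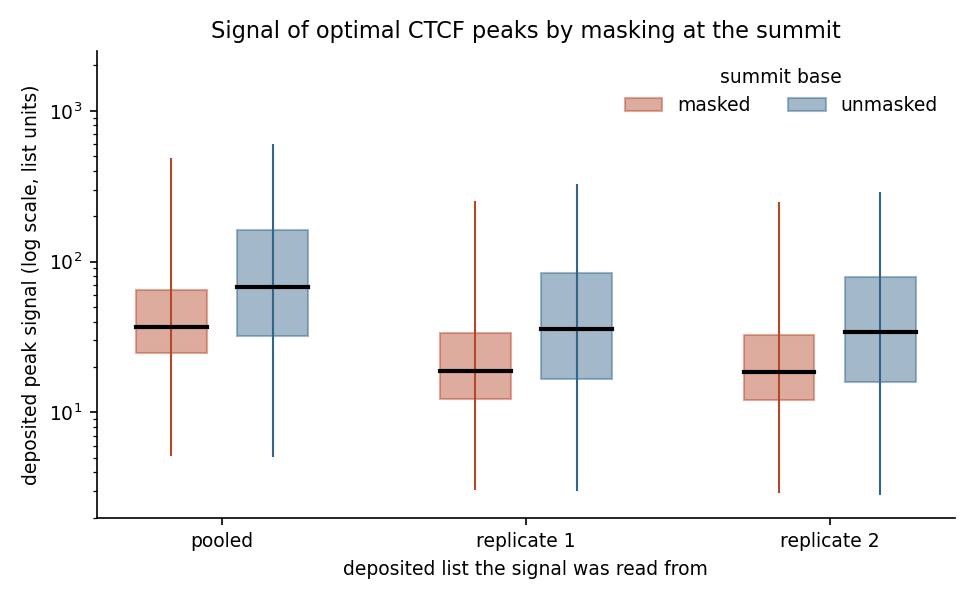
Deposited peak signal (vertical log axis) at optimal autosomal summits with a masked or an unmasked base, read from the optimal list (pooled) and from each replicate list. Boxes span the quartiles, black lines are medians and thin lines reach from the lowest to the highest peak; the masked medians of 36.9, 18.8 and 18.5 lie below the unmasked medians of 68.3, 35.96 and 34.2.

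The strongest masked summits were strong in both libraries. The top masked peak, with a pooled signal of 476.0, had 248.0 in replicate 1 and 229.1 in replicate 2 and ranked 44th in the optimal list. It lay 78037 bp upstream of Prok2, which encodes the secreted ligand prokineticin 2. The third, in an intron and 1773 bp from the start site of Fpgs, the enzyme that adds glutamates to folate, had 456.5 pooled, 225.0 in replicate 1 and 232.0 in replicate 2.

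The next 7 of the 10 strongest were near Phldb3, Tpcn2, Phc2, Cyth2, Tspan15, Bmp7 and Wdr11, with pooled signals of 420.3 to 453.4. The nearest gene is the protein-coding gene with the nearest start site and need not be the one a site acts on. The site near Bmp7, a bone morphogenetic protein of the limb, lay between genes and 108818 bp downstream of its start site, and had 236.7 in replicate 1 and 194.2 in replicate 2. All 10 carried the CTCF motif, and none belonged to a sequence family.

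At like signal, the shares of masked and unmasked sites found in both libraries differed by less than the error of the difference. A site counts as found in a replicate when a summit lies within 100 bp among the strongest 49970 peaks of that replicate. This rests on the rank of the replicate signal, which was high where pooled signal was high. Comparing at like signal therefore leaves little room for a difference. Of all autosomal optimal peaks, 81.2% were found in both. The count was 6176 masked summits (72.6%) and 33462 unmasked summits (83.0%), while unmasked summits weighted to the masked deciles came to 72.3%. The difference at like signal was 0.343 percentage points (SE 0.417, 95% interval -0.533 to 1.22, n = 19 chromosomes, adjusted p = 0.422), with the masked share higher on 11 of 19 chromosomes. Alternatively, counting summits within 50 bp gave 1.11 points (n = 19 chromosomes, adjusted p = 0.0150), and counting those within 200 bp gave -0.0602 points (n = 19 chromosomes, adjusted p = 0.881), so the call depended on the distance.

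The share found in both followed the signal in either group. In the weakest decile, with pooled signals of 5.14 to 20.8, it was 1.15% of masked and 1.34% of unmasked summits. In the second decile it was 33.8% of masked and 34.3% of unmasked summits. In the third decile it was 81.4% of masked and 80.0% of unmasked summits, and in the fourth 98.2% of masked and 96.7% of unmasked summits. The weakest decile and those above the third thus left little room for a difference. Masked summits made up 24.9% of the weakest decile, 26.6% of the second and 4.71% of the strongest. A gap as wide as that between 72.6% of masked and 83.0% of unmasked summits was seen within no decile.

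The signals of replicate 1 and replicate 2 differed slightly less at masked than at unmasked sites of like signal. The absolute log2 ratio between replicates, each scaled by its own median over the optimal peaks, averaged 0.425 at masked and 0.437 at unmasked summits of like signal. The difference of -0.0119 passed the test (SE 0.00444, n = 19 chromosomes, adjusted p = 0.0166), with the masked value lower on 12 of 19 chromosomes. It was -0.00470 among the strongest 50% of peaks and did not pass there (n = 19 chromosomes, adjusted p = 0.291), nor did it where at least 50% of the bases within 50 bp of the summit had to be masked, with -0.0100 (n = 19 chromosomes, adjusted p = 0.119). In the strongest decile the SD of the log2 ratio was 0.136 at masked and 0.136 at unmasked summits, and in the weakest decile 0.809 at masked and 0.836 at unmasked summits.

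The masked sites with the most unequal signals were mostly weak. The largest ratio was near Cavin1, which encodes a coat protein of caveolae, with 23.8 in replicate 1, 3.26 in replicate 2 and 27.6 pooled, a scaled log2 ratio of 2.80. The most negative ratio was near Mettl17, a mitochondrial methyltransferase-like gene, with 11.3 in replicate 1, 60.5 in replicate 2 and 115.4 pooled, a ratio of -2.49. Together the replicate values near Mettl17 fell well short of the pooled value, while those near Cavin1 came close to it. Replicate signal was read from the nearest summit within 100 bp, which need not be the strongest, and its part here was not tested. The other 8 summits at the ends of this range had pooled signals between 20.5 and 25.7.

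**Figure D2:**
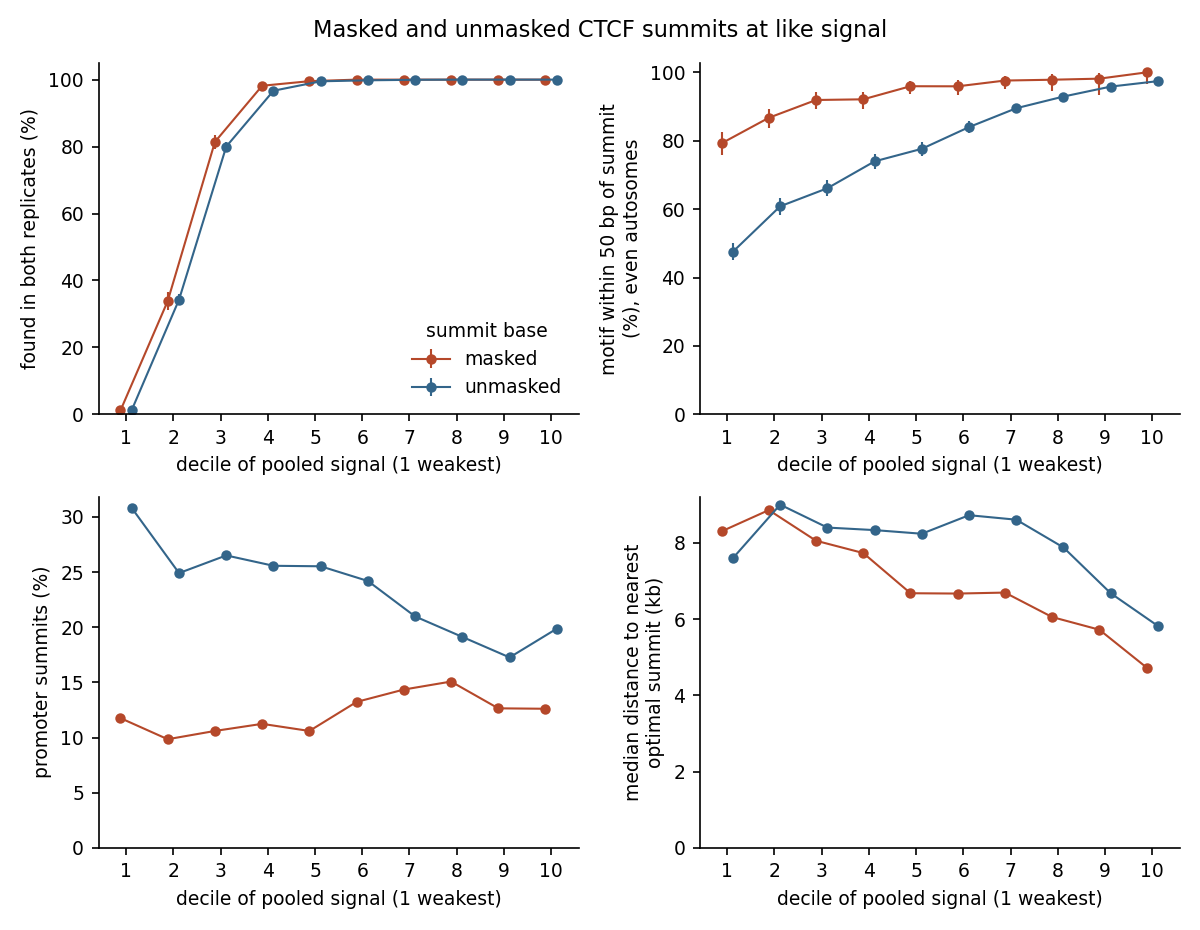
Masked (left marker of each pair) and unmasked summits of the optimal list in deciles of pooled signal, with the share found in both replicates, the share with a motif on even-numbered autosomes, the share in promoters and the median distance to the nearest optimal summit. Error bars are exact binomial 95% intervals where drawn; the shares found in both nearly coincide, the masked motif share starts at 79.3% against 47.6% unmasked in decile 1, and the masked promoter share stays below the unmasked share in each decile.

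The CTCF motif was present at a larger share of masked than of unmasked sites. On the 9 even-numbered autosomes, which had no part in learning it, 81.8% of all optimal summits had a hit within 50 bp. The share was 91.3% of masked summits (3374 of 3697) and 79.8% of unmasked summits (14621 of 18312). At like signal the difference was 18.9 percentage points (SE 0.520, 95% interval 17.7 to 20.1), against 71.7% of unmasked summits weighted alike, and it lay between 15.8 and 20.5 points on each of the 9 chromosomes. Among the strongest 50% of peaks it was 7.71 points, with 97.4% of masked summits holding a motif.

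The gap was widest among weak peaks. In the weakest decile 79.3% of masked and 47.6% of unmasked summits held a motif, and in the strongest 100% of 108 masked and 97.4% of unmasked summits. A hit is a score that 5% of windows 1 kb away reached, and by itself it occurred in 6.52% of masked and 4.51% of unmasked flanking windows. At the stricter score that 1% of flanking windows reached, 74.3% of masked summits on the even-numbered autosomes and 47.9% of unmasked summits of like signal had a hit, a fitted difference of 25.7 points (SE 0.762).

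The motif itself differed in base composition. At position 10, counted from 1 at the 5′ end of the motif, 73.4% of masked hits had A, against 18.2% of unmasked hits. At position 13 81.5% of masked and 38.9% of unmasked hits had A, and at position 19 40.6% of masked and 7.69% of unmasked hits had T. Positions 7 and 12 varied little in either group, with C at position 7 in 99.7% of masked and 98.3% of unmasked hits, and G at position 12 in 99.9% of masked and 99.4% of unmasked hits.

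A few exact cores recurred among the masked hits. Those given here were the most frequent among masked hits and were then looked up in unmasked hits, a choice that favours a higher masked share. The core of positions 8 to 19 read AGAAGAGGGCAT at 1371 masked hits (17.5%) and 133 unmasked hits (0.413%), and AGAAGAGGGCAC at 875 masked hits (11.2%) and 74 unmasked hits (0.230%). AGAAGAGGGCGC followed with 545 masked hits (6.95%) and 94 unmasked hits (0.292%). A motif hit held at least 1 CG at 28.7% of masked and 43.8% of unmasked motif-bearing summits. CG is the dinucleotide that DNA methylation acts on, and methylation was not measured here.

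The DNA around masked summits was poorer in G and C. Within 100 bp on either side GC averaged 46.4% at masked and 51.4% at unmasked summits of like signal, a difference of -4.90 percentage points (SE 0.202, n = 19 chromosomes, adjusted p = 1.60e-14) in the same direction on 19 of 19 chromosomes. The motif score, a log2 odds value, had a median of 14.3 at masked and 14.9 at unmasked motif-bearing summits.

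At the same motif score masked sites had less signal. With scores of 18 and over, the median pooled signal was 52.9 at 1730 masked and 172.2 at 8360 unmasked summits. Replicate 1 gave 27.4 at masked and 88.6 at unmasked summits of this score, and replicate 2 gave 24.8 at masked and 83.7 at unmasked summits. With scores of 12 to 14, the pooled medians were 34.9 at masked and 66.6 at unmasked summits, and with scores under 8 they were 31.01 at masked and 39.5 at unmasked summits. The gap thus widened with the score. The matrix was learned from the strongest 1000 unmasked summits of odd-numbered autosomes, and those summits were among the unmasked ones compared. The part of this choice in the gap was not tested.

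Scanning the autosomes for the motif shows how many copies had a peak. Of 325302 hits whose middle base was masked, 9123 (2.80%) had an optimal summit within 50 bp, and of 464695 unmasked hits 33321 (7.17%) did. With scores of 18 and over, 1877 of 3445 masked hits (54.5%, exact 95% interval 52.8 to 56.2%) and 8250 of 9589 unmasked hits (86.0%, 85.3 to 86.7%) had a peak. With scores of 14 to 16 the shares were 16.8% of masked and 36.6% of unmasked hits. The masked share was below the unmasked share in each of the 7 score ranges. Copies like the family 3 consensus made up 51473 of the masked hits, and 0.765% of these copies had a peak. With scores of 10 to 12 they made up 23105 of 46503 masked hits. The scan covered all autosomes, so the peaks that the matrix was learned from were among the unmasked ones counted.

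Part of the masked motif-bearing sites could be grouped by the sequence beside the motif. Families were built from the 15 bases on each side of the motif, with at least 70% identity to a shared consensus, and the search was set to stop at 10 families. These took in 4120 of 7838 masked motif-bearing summits (52.6%), and the other 3718 were in none. The same identity was met by 847 of 32199 unmasked motif-bearing summits (2.63%). The consensus sequences were built from masked summits alone, so a lower share at unmasked summits was built in and is a description. Family 1 had 2042 members, family 2 had 625, family 3 had 368 and family 4 had 358, and the others had 31 to 191. All 4 large families had members on each of the 19 autosomes. The 4 consensus lines printed above share the stretch agatccc just after the motif, so the number of families is not a number of kinds of element.

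Signal differed between families. The median pooled signal was 39.7 in family 1, 34.2 in family 2, 23.7 in family 3 and 31.2 in family 4, and between 34.2 and 56.4 in the other 6. Family 1 had medians of 20.1 in replicate 1 and 19.8 in replicate 2, and family 3 had 12.4 in replicate 1 and 11.9 in replicate 2. In family 1, 78.7% of summits were found in both replicates, and in family 3 42.9%. Family 3 was the weakest of the 10 in pooled signal, and 3 in 4 of its members were under 33.3.

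Family 3 also stood apart in its masking. The masked run at its summits had a median length of 196 bp, against 62 bp in family 1 and 142 bp in family 2. Of its members, 67.4% were masked over all 50 bases on each side of the summit. The same share was 6.81% in family 1 and 34.9% in family 2. Its 36 bases at the summit had a single genome copy at 77.4% of members, and its 50 bases at 96.2%. In family 1 the 36 bases were single at 96.9% and the 50 bases at 100%. In family 2 the 36 bases were single at 83.7% and the 50 bases at 98.6%.

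The strongest members of families 1 to 4, picked for their pooled signal, show how high each family reached. Family 1 was led by a summit with a pooled signal of 357.6 in an exon near Slc47a1, which encodes a cation exporter, with 178.8 in replicate 1 and 177.7 in replicate 2. The family 1 summit near Zbtb8os printed above had 332.6 pooled, 165.8 in replicate 1 and 170.3 in replicate 2. Family 2 was led by a promoter summit 674 bp from a start site of Dhx58, an RNA sensor helicase, with 283.6 pooled, 137.3 in replicate 1 and 146.8 in replicate 2.

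Family 3 was led by the intronic summit near Mcts2, an imprinted retrogene, with 159.2 pooled, 76.2 in replicate 1 and 81.8 in replicate 2. Next came a promoter summit of Fh1, the fumarate hydratase gene, with 118.7 pooled, 52.1 in replicate 1 and 65.1 in replicate 2. Family 4 was led by the summit near Ints1, a subunit of the Integrator complex, with 229.3 pooled, 124.8 in replicate 1 and 106.4 in replicate 2. The leading summit of family 3 was below those of families 1, 2 and 4 in either replicate.

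**Figure D3:**
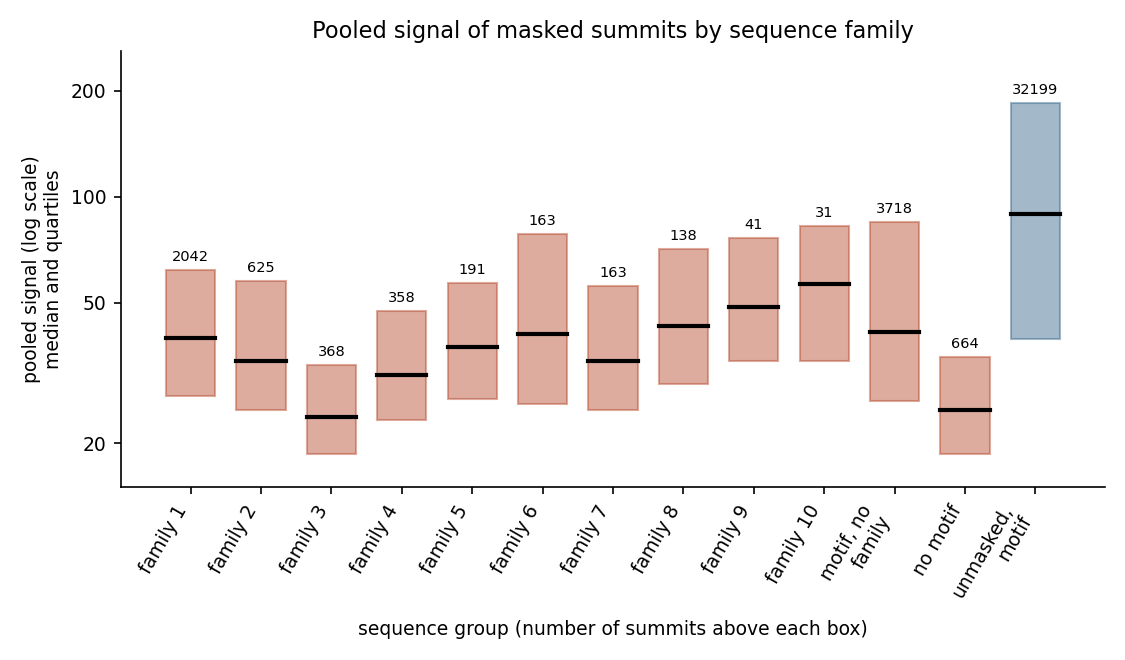
Pooled signal (vertical log axis) of masked summits by sequence family, of masked summits with a motif and no family, of masked summits without a motif, and of unmasked summits with a motif. Boxes span the quartiles, black lines are medians and the numbers above are summits; family 3 has the lowest family median, 23.7, and unmasked motif-bearing summits have 89.4.

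Sites outside the families were the other large share. Masked summits with a motif and no family numbered 3718, with a median pooled signal of 41.4, and 13.7% of them were promoter summits. Masked summits without a motif numbered 664, with a median of 24.8, and 48.9% of them were found in both replicates. Unmasked summits with a motif had a median of 89.4, so all the masked groups lay below it.

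Families also differed in how many of their genomic copies had a peak. Genomic motif hits were assigned to the closest consensus at the same identity, so these counts differ from the member counts above. Of family 1 copies, 1646 of 4289 (38.4%) had a peak, of family 2 659 of 3341 (19.7%), of family 4 440 of 3552 (12.4%) and of family 3 394 of 51473 (0.765%). The consensus sequences were built from copies with a peak, so these shares are a description.

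The order of families 1, 2, 4 and 3 was the same in each of the 7 score ranges. At scores of 12 to 14, 44.5% of family 1, 19.8% of family 2, 15.05% of family 4 and 2.69% of family 3 copies had a peak, against 16.7% of all unmasked hits. Family copies were chosen by likeness to sites with a peak and unmasked hits were not, so this contrast is a description alone. In each of the 10 families the median score was higher for copies with a peak than for copies without. It was 13.9 with and 10.3 without a peak in family 1, and 12.2 with and 10.6 without in family 3. At scores of 18 and over the share in family 3 was 32.1%, from 53 copies.

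Exact duplication of the sequence moved with the peaks in family 3. Its copies were single over 50 bases in 91.4% of cases with a peak and 52.6% without. Among the 27214 copies that were single over 50 bases, 1.32% had a peak, against 38.7% of such copies in family 1. The part of duplication and of read mapping in the difference between the families was not tested.

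**Figure D4:**
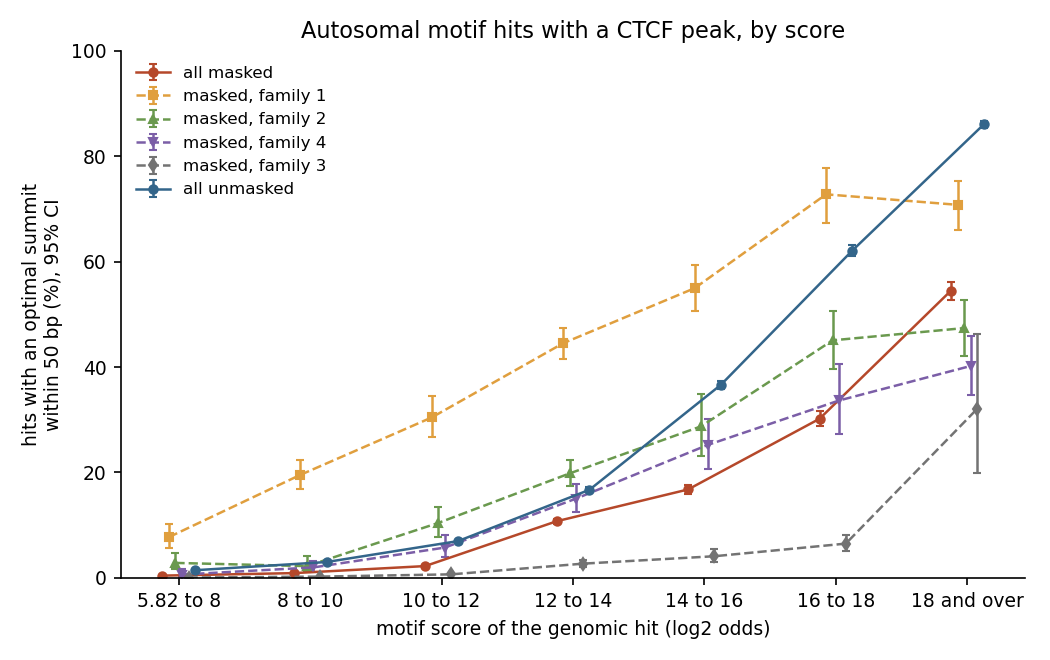
Share of autosomal motif hits with an optimal summit within 50 bp (vertical axis, with exact binomial 95% intervals) by motif score, for all masked hits, the masked hits of families 1, 2, 4 and 3, and all unmasked hits. At scores of 18 and over shares are 54.5% (all masked), 70.8% (family 1), 32.1% (family 3) and 86.0% (all unmasked hits). Family 1 lies above unmasked hits in the ranges below 18, but its consensus was built from sites with a peak.

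Masked CTCF sites lay less often at promoters and exons, and more often in introns and between genes. A summit within 1 kb of an annotated start site was classed as promoter, the rest by the first that applied of exon, intron and intergenic. The share of masked bases in each class was not counted, so its part in these differences was not tested. Promoters held 21.1% of all autosomal optimal summits. They held 989 masked summits (11.6%) and 25.1% of unmasked summits of like signal, a difference of -13.2 percentage points (SE 0.689, n = 19 chromosomes, adjusted p = 4.99e-13) seen on 19 of 19 chromosomes. Among the strongest 50% of peaks it was -7.55 points (n = 19 chromosomes, adjusted p = 4.26e-06).

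Introns held 47.7% of masked and 37.4% of unmasked summits of like signal, a difference of 10.1 points (SE 0.522, n = 19 chromosomes, adjusted p = 4.99e-13) on 19 of 19 chromosomes. Exons held 3.31% of masked and 5.73% of unmasked summits, a difference of -2.39 points (SE 0.294, n = 19 chromosomes, adjusted p = 3.23e-07) on 18 of 19. Intergenic sequence held 37.4% of masked and 31.7% of unmasked summits, a difference of 5.45 points (SE 0.790, n = 19 chromosomes, adjusted p = 2.71e-06) on 18 of 19. The intergenic difference was 1.93 points among the strongest 50% of peaks and did not pass there (n = 19 chromosomes, adjusted p = 0.173). With promoters drawn at 5 kb the promoter difference was -5.84, the exon difference -1.49, the intron difference 5.23 and the intergenic difference 2.10 points, each in the same direction and past the test (n = 19 chromosomes).

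**Figure D5:**
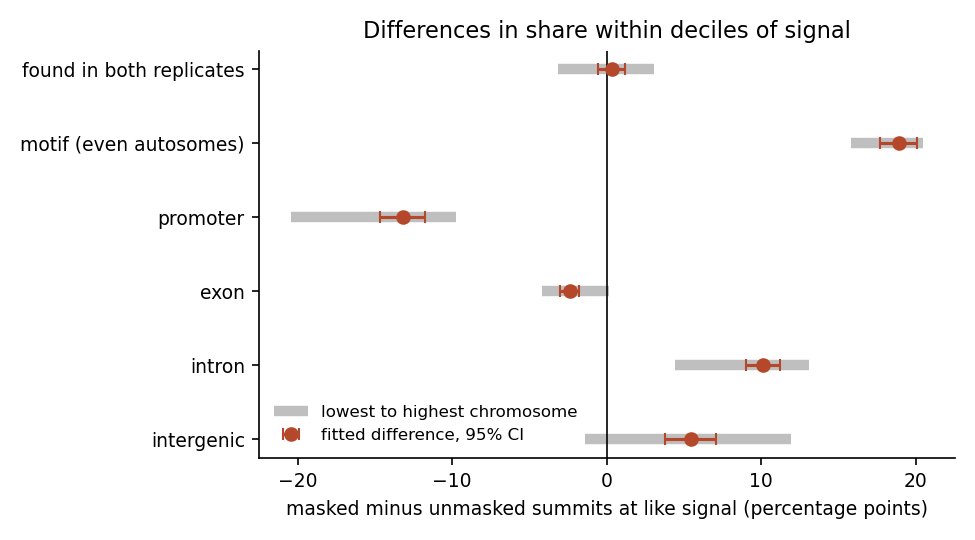
Fitted differences in share between masked and unmasked summits at like signal, in percentage points (horizontal axis), with 95% intervals and the range of the same difference over single chromosomes in grey. The motif share differs by 18.9, promoters by -13.2 and introns by 10.1 points, and the share found in both replicates by 0.343 points with an interval that includes 0.

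The signal of masked sites varied little between gene classes. The median pooled signal was 39.5 at 989 promoter, 37.4 at 281 exon, 36.2 at 4056 intron and 37.0 at 3176 intergenic masked summits. Unmasked summits had medians of 54.1 in promoters, 66.9 in exons, 65.8 in introns and 85.3 between genes. Families made up 33.3% of masked promoter summits, 45.2% in exons, 51.4% in introns and 49.7% between genes.

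The strongest masked promoter summit was 981 bp from a start site of Aspg, an asparaginase gene, with 409.7 pooled, 215.1 in replicate 1 and 196.7 in replicate 2. The next were at Cln6, a protein of the endoplasmic reticulum membrane, with 363.0 pooled, 188.4 in replicate 1 and 175.4 in replicate 2, and at Nfatc4, a calcium-dependent transcription factor, with 339.1 pooled, 174.7 in replicate 1 and 164.5 in replicate 2. The exon class was led by summits near Nemp1 with 365.1 pooled, Slc47a1 and Sfxn2 with 330.3 pooled. All of these were found in both replicates.

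Few genes of the limb lists had a masked summit at a start site. Of 20807 autosomal protein-coding genes, 684 (3.29%) had a masked summit within 1 kb of a start site and 3344 (16.1%) had one inside the gene. Of 50 limb patterning genes, 1 had a masked promoter summit and 8 (16%) had one inside. Cartilage and bone genes had 0 of 29 at promoters and 6 of 29 inside, skeletal muscle genes 1 of 29 and 5 of 29, and genes of cohesin and the CTCF machinery 0 of 21 and 4 of 21. These shares were near those of all genes or rested on few genes, and they were not tested.

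The masked promoter summit of the patterning list was at Ptch1, the hedgehog receptor, 745 bp upstream of a start site, with 22.7 pooled, 11.4 in replicate 1 and 9.40 in replicate 2. It had no motif and was not found in both. Inside genes, the strongest summit in Bmpr1a, a receptor of bone morphogenetic proteins, had 123.8 pooled, 66.7 in replicate 1 and 55.2 in replicate 2. A summit of 155.1 pooled lay inside the annotated span of Fgfr2, a fibroblast growth factor receptor, though its nearest start site was that of Tacc2.

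In the cartilage and bone list, the intronic summit in Hapln1, the link protein of cartilage matrix, had 130.9 pooled, 80.1 in replicate 1 and 49.3 in replicate 2. Col2a1, the main collagen of cartilage, held one of 67.6 pooled, with 34.6 in replicate 1 and 31.7 in replicate 2. The summit in Pth1r, the receptor of parathyroid hormone related protein, was a member of family 1 with 66.0 pooled, though its nearest start site was that of Myl3. Sox5, a chondrocyte transcription factor picked after its values were seen, held 6 masked among 13 summits. In all genes of that list 12 of 71 summits (16.9%) were masked, against 17.3% of the summits in all protein-coding genes.

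In the muscle list, Ryr1, the calcium release channel of the sarcoplasmic reticulum, held 5 masked among 11 summits, the most in that list. In all its genes 9 of 55 summits (16.4%) were masked, and Ttn, the giant spring protein of the sarcomere, held 0 among 8. The masked promoter summit of Ryr1, a member of family 1, had 37.7 pooled, 19.6 in replicate 1 and 17.7 in replicate 2. The strongest masked summit inside Ryr1, also of family 1, had 59.3 pooled, 32.3 in replicate 1 and 26.4 in replicate 2. Actn2, an actinin of the sarcomere, held one of 81.8 pooled, and Cacna1s, the voltage sensor of muscle, one of 65.3. Both were found in both replicates.

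Among cohesin genes and partners, the summit in Bptf, a subunit of a chromatin remodeller, was a member of family 1 with 172.0 pooled, 87.6 in replicate 1 and 84.9 in replicate 2. The summit in Smc3, a cohesin subunit, was a member of family 2 with 30.03 pooled. That in Nipbl, the cohesin loader, had 22.1 pooled, though its nearest start site was that of Cplane1. Of 1457 olfactory and vomeronasal receptor genes, which belong to another tissue, 0 had a masked promoter summit, which allows a share of up to 0.253% (exact 95% bound), and 1 had one inside. These genes had few CTCF peaks of any kind, with 8 genes having any promoter summit and 22 summits inside them in all, so the counts say little about masked sites. The masked one was in Olfr90, with 44.6 pooled, 20.1 in replicate 1 and 25.3 in replicate 2, a family 3 member whose 36 bases had 2611 copies in the genome and whose 50 bases had 1.

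Spacing of masked sites along the genome differed slightly from that of unmasked sites. The nearest other optimal summit was at a median of 7455 bp from masked and 7756 bp from unmasked summits. At like signal the log2 distance was shorter by a fitted difference of -0.0916 (SE 0.0309, n = 19 chromosomes, adjusted p = 0.0104), though it was shorter on 12 of 19 chromosomes and not on the others. Among the strongest 50% of peaks the difference was -0.24 (n = 19 chromosomes, adjusted p = 6.97e-05). By decile, the median was 8.30 kb for masked and 7.60 kb for unmasked summits in the weakest, and 4.73 kb for masked and 5.822 kb for unmasked summits in the strongest.

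Over all summits, not compared at like signal, the closest pairs were less frequent at masked ones. A neighbour within 1 kb was present at 8.35% of masked and 10.5% of unmasked summits, and a neighbour within 10 kb at 58.7% of masked and 56.6% of unmasked summits. The nearest neighbour was itself masked at 21.7% of masked and 16.3% of unmasked summits. The nearest masked summit was at a median of 44.7 kb from a masked summit.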

How the data were processed

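Peak lists of 2 CTCF libraries and of both together were analysed on mm10. The authors deposited, per peak, a signal value; its normalization, the peak caller, the aligner and the control were not given in the sources used here. Replicate lists hold 300000 peaks each. Positions were read on GRCm38.p6 with GENCODE M21; the origin of its lower-case masking was likewise not stated there. Replicate signal is that of the nearest summit within 100 bp. The motif matrix grew from its most over-represented 10-mer over 10 rounds. Fits used numpy 2.4.6 and scipy 1.17.1 in Python 3.11.15 and were tested on simulated data. Alternatives were the conservative list, stronger peaks, each replicate, the masking window, sex chromosomes, strata, distances and scores. Named items were the strongest masked summits of all, per gene class, family and gene list, and those with extreme replicate ratios. Some of these are not reported here. Members, lists and named items were chosen with earlier results of these data known. Depth is unknown. Exact binomial intervals cover counting error only, and those of the fitted differences rest on the spread between chromosomes.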

Additional observations from a re-analysis of the deposited data

How the results depend on the processing

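The 10 fitted differences were refitted under 12 alternative settings, giving 76 values, of which 70 kept their direction and their side of the adjusted p threshold of 0.05. Among the strongest 50% of peaks, 100% of masked and 99.9% of unmasked summits of like signal were found in both replicates. The difference there was 0.0793 points (n = 19 chromosomes, adjusted p = 0.00333), with the masked share at its ceiling. The difference in this share was 1.11 points with summits within 50 bp, and -0.0602 points with summits within 200 bp. The absolute log2 ratio differed by -0.00470 among the strongest 50% and by -0.0100 where at least 50% of the bases within 50 bp of the summit had to be masked (n = 19 chromosomes, adjusted p = 0.119). The intergenic difference was 1.93 points among the strongest 50%. For these 6 values the cause was not tested. The masked share was 9.98% among the strongest 50%, 13.5% with the same window rule, and 16.9 to 17.3% with either library left out. Leaving out a library gave differences of -0.71 to -0.70 in log2 signal, 17.8 to 18.8 points in motif share, -13.1 to -12.9 in promoter share, and -0.114 to -0.106 in log2 distance; the replicate agreement needs both libraries and has no such value. No paired analysis was possible because the 2 libraries form a single group. Read depth is unknown, so it cannot be said which weak sites were below detection.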
